A study of Mus musculus with 21 samples.

Results

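Semaphorins are ligands that act on plexins, often with neuropilins as coreceptors, and 10 genes of this family were followed through the cDC transcriptomes of the mouse thymus and spleen. They were 4 semaphorins (Sema4a, Sema4d, Sema7a and Sema6d), 4 plexins (Plxna1, Plxnb2, Plxnc1 and Plxnd1) and both neuropilins (Nrp1 and Nrp2). Members were chosen by gene symbol, with earlier results of these data known, and each symbol matched 1 of the 37734 genes in the deposited files. All 10 reached a value of 10 in 3 or more samples and were tested with the 14970 genes that met this criterion. The values are normalized read counts, scaled by the authors for the depth of each library.

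The cells came from C57BL/6 mice aged 6 to 8 weeks and without any treatment, and thymuses or spleens of several mice were pooled before CD11c+ cells were enriched and FACS-sorted. cDC1 were gated as CD24+ CD11b- cells negative for F4/80, Ly6g, Ly6c, DX5 and B220, and cDC2 as CD24- CD11b+ B220- cells. Immature cells were CCR7- Esam- and mature cells CCR7+ Esam+. The 6 groups were immature splenic cDC1 (5 libraries), immature splenic cDC2 (3), immature thymic cDC1 (4), immature thymic cDC2 (3), mature thymic cDC1 (3) and mature thymic cDC2 (3). Mature splenic cells were not analysed here, so that maturation was compared in the thymus and tissue in immature cells.

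Semaphorins were first described as axon guidance cues, and several act in the immune system as membrane proteins that can also be shed. A plexin is a receptor whose cytoplasmic part inactivates small GTPases of the Ras and Rap family, and so couples a semaphorin to the cytoskeleton and to integrin adhesion. In dendritic cells and their T cell partners, Sema4A is known as a costimulatory ligand of T cells, Sema4D (CD100) as a ligand of CD72 and of plexin-B receptors, Sema7A as a GPI-anchored ligand of beta1 integrins and plexin-C1, and Sema6D as a ligand of plexin-A1. Plexin-A1 is known for roles in dendritic cell migration and in contacts with T cells.

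Libraries held between 14266867 and 40119669 counted reads. Splenic cDC1 replicates 4 and 5 carried the same index, lane and leading number in their library names, a number whose meaning the labels do not give, and their counts differed far less than those of any other pair of that group, so they were averaged and counted as 1 sample, which left 20 samples. Splenic cDC1 replicate 1, on lane 5, carried that leading number too and was kept as a separate sample. Lane 5 held 2 splenic cDC1, 2 splenic cDC2, 1 immature thymic cDC1 and 1 immature thymic cDC2 sample, and lane 8 held all others, including every mature sample. The labelled immature subsets carried their markers, with the summed value of 7 cDC1 markers at 86264 to 97747 in splenic cDC1 against 3024 to 4349 in splenic cDC2. Likewise the sum of 6 cDC2 markers was 60485 to 62359.9 in immature thymic cDC2 against 495 to 876 in immature thymic cDC1, and Itgam, which encodes CD11b, was at 0 in the 3 mature thymic cDC1 samples. The margins were narrower in the mature thymus. There the cDC1 marker sum was 40531 to 44177 in cDC1 and 14331 to 22462 in cDC2. The cDC2 marker sum was 2109 to 3621 in mature cDC1 and 14059 to 18149 in mature cDC2. In each mature cDC2 sample it was below the cDC1 marker sum. Of 7 mature DC markers, which include the sorting genes Ccr7 and Esam, 7 were higher in mature than in immature thymic cells for cDC1 and 6 for cDC2.

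Markers of other cell types moved with the groups. The sum of 8 macrophage markers was 15594 to 25894 in splenic cDC2 and 18723 to 24967 in immature thymic cDC2, against 779 to 1678 and 1141 to 1486 in the cDC1 counterparts, and all 8 were higher in cDC2 in each of the 3 subset comparisons. In mature thymic cDC2 that sum was 18296, 19387 and 2856 in replicates 1, 2 and 3, so that replicate 3 stood apart. The 8 thymocyte and T cell markers summed to 119 to 179 in immature and 703 to 1550.3 in mature thymic cDC1, and to 92.9 to 204 and 653 to 1169 in immature and mature thymic cDC2, with Ptcra at 0 in immature thymic cDC1. In the spleen they summed to at most 81.4. The 6 pDC markers reached 7210.4 to 8122 in immature thymic cDC2 against 2325 to 3427 in splenic cDC2, and all 6 were higher there. The 5 endothelial markers fell from 2475 to 2706 in immature to 63.6 to 129 in mature thymic cDC2, of which 2 passed the filter and both were called, while Emcn and Cldn5 were at 0 in both groups. The part of these other cell types in the results was not tested, and in such sorted bulk samples fewer cells of a type and less RNA per cell cannot be told apart.

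In the annotation GENCODE M21 of the mouse build mm10, which is the build of the alignment, Sema4a lies at chr3:88435959-88461182, minus strand, Sema4d at chr13:51685529-51793747, minus strand, Sema7a at chr9:57940112-57962865, plus strand and Sema6d at chr2:124089969-124667770, plus strand. The plexin genes lie at chr6:89316314-89362620, minus strand (Plxna1), chr15:89155549-89180788, minus strand (Plxnb2), chr10:94790866-94944835, minus strand (Plxnc1) and chr6:115954811-115995005, minus strand (Plxnd1). Nrp1 lies at chr8:128358604-128503363, plus strand, and Nrp2 at chr1:62703285-62818695, plus strand. Values cover all annotated exons of a gene, and whether the counting used strand is not given in the sources used here, so reads from overlapping genes may be shared. Exons of Plxna1 share 970 bases with Gm26811 on the other strand, those of Plxnc1 share 115 bases with Gm48718 on the same strand, and those of Sema4a and Nrp1 contain the microRNA genes Mir7011 and Mir1903.

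The 4 members Sema7a, Sema6d, Plxnc1 and Nrp2 were higher in mature than in immature thymic cells of both subsets, and the sequence just upstream of a RefSeq start of each (build GRCm38, the same as mm10) is shown for that reason. Capitals mark the GC box, GGGCGG on either strand, in windows at chr9:57939862-57940111 (plus strand), chr2:124089719-124089968 (plus strand), chr10:94944846-94945095 (minus strand) and chr1:62703067-62703284 (plus strand). Each is written 5′ to 3′ on the strand of the gene and ends at the base before the RefSeq start, except that 32 bases at the end of the Nrp2 window are left out because GENCODE M21 counts them as part of the gene.
Sema7a: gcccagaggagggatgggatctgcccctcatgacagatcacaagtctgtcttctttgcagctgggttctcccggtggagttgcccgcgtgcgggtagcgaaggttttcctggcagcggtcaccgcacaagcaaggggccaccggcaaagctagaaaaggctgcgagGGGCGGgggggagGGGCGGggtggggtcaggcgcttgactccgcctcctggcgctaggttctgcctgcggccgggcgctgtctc
Sema6d: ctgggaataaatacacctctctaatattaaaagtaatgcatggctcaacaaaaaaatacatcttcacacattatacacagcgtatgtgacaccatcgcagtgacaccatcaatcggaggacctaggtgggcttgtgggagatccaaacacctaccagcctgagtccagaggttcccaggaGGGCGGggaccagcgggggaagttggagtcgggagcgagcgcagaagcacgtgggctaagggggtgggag
Plxnc1: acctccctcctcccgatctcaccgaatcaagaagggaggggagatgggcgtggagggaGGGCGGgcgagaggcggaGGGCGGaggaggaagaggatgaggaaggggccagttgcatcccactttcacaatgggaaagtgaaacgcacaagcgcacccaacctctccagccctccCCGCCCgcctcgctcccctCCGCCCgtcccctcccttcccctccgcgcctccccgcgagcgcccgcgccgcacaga
Nrp2: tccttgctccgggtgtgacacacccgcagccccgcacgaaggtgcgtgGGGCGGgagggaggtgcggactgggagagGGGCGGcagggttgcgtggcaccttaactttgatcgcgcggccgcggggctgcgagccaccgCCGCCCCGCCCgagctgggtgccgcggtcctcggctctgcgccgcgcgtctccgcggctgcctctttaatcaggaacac

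The GC box, a motif bound by Sp family factors, occurred 2 times before Sema7a, 1 time before Sema6d, 4 times before Plxnc1 and 4 times before Nrp2, in the sequences shown, counting overlapping matches. Sema6d has another RefSeq start, whose window at chr2:124653331-124653580 (plus strand) is not shown and held no GC box. RefSeq entries covered 9 of the 10 members with 16 start sites, and 12 of these windows held a GC box in the 250 bases before the start, against 33.0% of 32536 windows of all genes. The median GC content of the windows was 61.6% for members and 52.4% for all genes. A match to the NF-kB consensus was present in 1 of 16 windows, before a start of Sema4a, against 7.28% of all windows. The AP-1 motif TGANTCA was present in 1 window, before Sema4d, against 6.73% of all. Both strands were searched, and such matches describe the letters in these windows only.

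Levels can be compared between genes once they are divided by the length of the annotated exons, and on this scale the leading member changed with maturation. In immature cells Sema4a led, at 766 normalized reads per kb in splenic cDC1, 1350.1 in immature thymic cDC1 and 1404 in immature thymic cDC2. Splenic cDC2 were the exception, with Plxnc1 first at 2749 per kb and Sema4a at 287. These are group means. In splenic cDC1 Plxnc1 was close behind Sema4a at 713 per kb, and the order of these genes differed between samples. The Sema4a mean there included replicate 3, at a normalized read count of 5602. In mature thymic cDC1 Sema7a and Plxnc1, a ligand and its receptor, were first and second at 6052 and 4837 per kb. The same genes led in mature thymic cDC2 in the other order of means, at 4659 for Plxnc1 and 3701 for Sema7a. In replicate 2 of mature thymic cDC2, however, Sema7a stood above Plxnc1 on this scale. The lowest level per kb was that of Nrp2 in splenic and immature thymic cDC1 (1.02 and 4.28), of Sema6d in splenic cDC2 (2.52) and of Nrp1 in the other 3 groups (4.30 to 59.9).

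**Figure D1:**
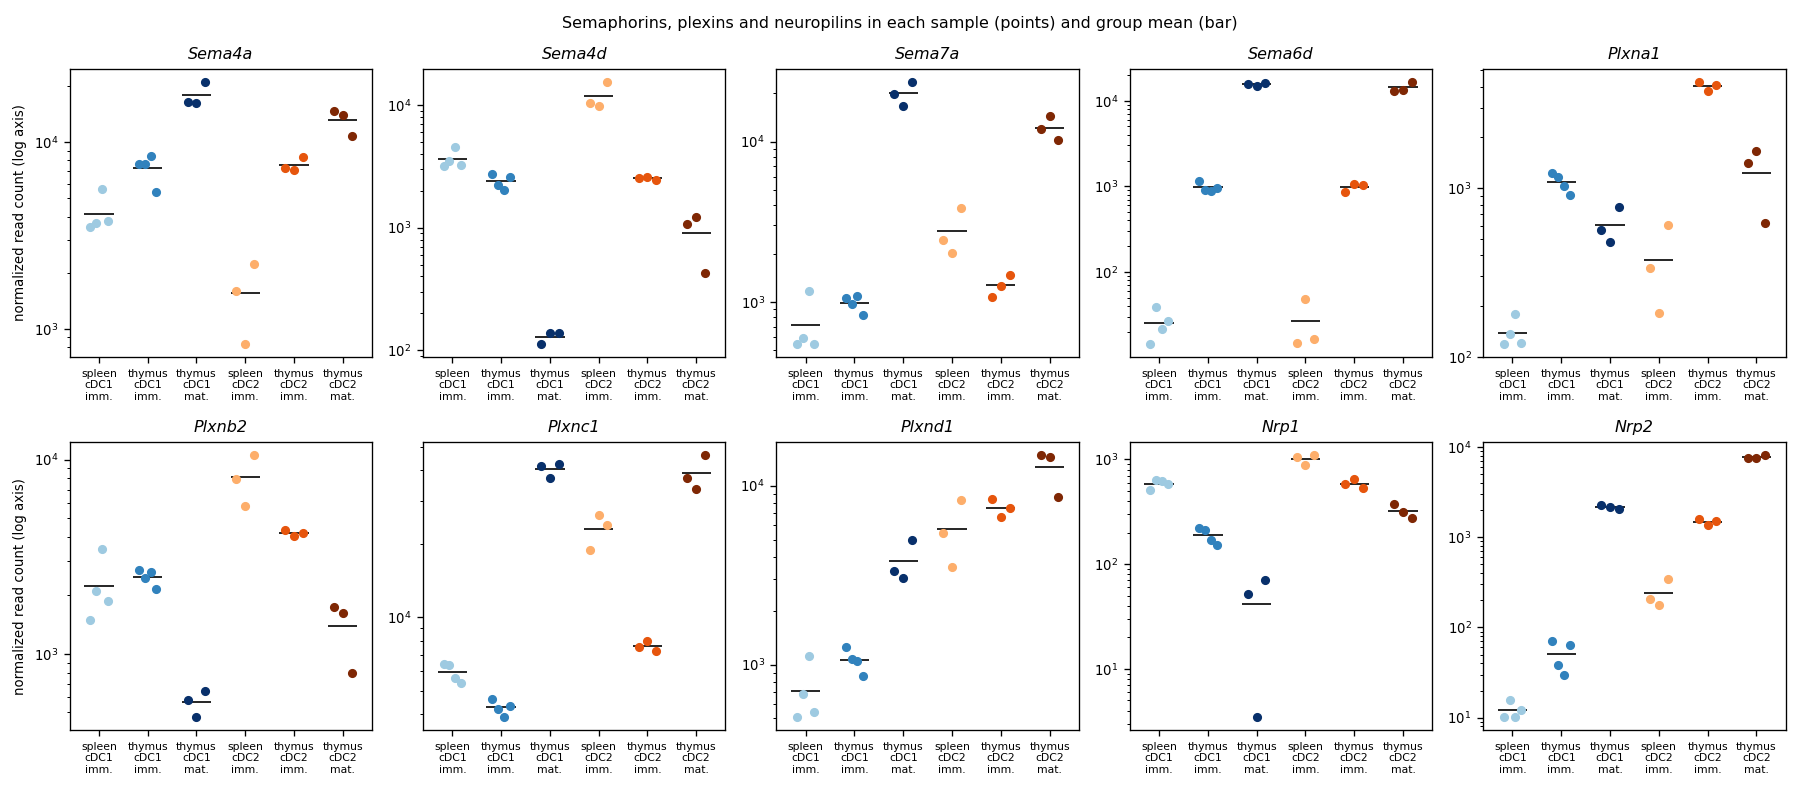
Normalized read count of each member (log axis) in each of the 20 samples, with 1 panel per gene, 1 point per sample and a bar at the group mean. Sema7a, Sema6d, Plxnc1 and Nrp2 stood highest in the mature groups, and Sema4d and Plxnb2 lowest in mature thymic cDC1.

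Maturation in the thymus came with changes of most members, in a background where many genes changed. Of the 10 members, 9 were called between mature and immature thymic cDC1, against 45.7% of all tested genes, with 6 higher (all genes 21.3%) and 3 lower (all genes 24.5%) in mature cells. In cDC2 7 were called, against 35.6%, with 4 higher (all genes 18.6%) and 3 lower (all genes 17.0%). Because members were chosen with earlier results of these data known, these counts can lie above the background through that choice. Here and in the comparisons below they describe the members only and are no result about the family. A gene was called at a Benjamini-Hochberg adjusted p below 0.1 in limma and an absolute log2 fold change above 1, on the scale of log2(value + 1), which understates the change of genes at low values. The mature and immature samples did not overlap for any of the 10 members in either subset, which was so for 55.3% of all genes in cDC1 and 60.0% in cDC2. The median log2 fold change of the members was 1.56 in cDC1 and 0.75 in cDC2, against -0.04 and 0.04 over all genes. Among lane 8 samples alone, the same 9 and 7 members were called, and the same 7 in cDC2 without mature thymic cDC2 replicate 3. The shares of all genes in those fits are not given here.

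Between tissues, 4 members were called in immature cDC1, against 8.77% of all genes, with 3 higher (all genes 4.26%) and 1 lower (all genes 4.52%) in the thymus. In immature cDC2 7 were called, against 14.2%, with 4 higher (all genes 8.3%) and 3 lower (all genes 5.87%). Thymic and splenic samples did not overlap for 6 members in cDC1 (all genes 17.8%) and for 9 in cDC2 (all genes 39.3%). Between splenic subsets 8 members were called, against 16.6%, with 7 higher in cDC2 (all genes 9.93%) and 1 lower (all genes 6.7%). In the immature thymus 4 were called, against 16.4%, all of them higher in cDC2, the direction of 11.0% of all genes, while 5.42% were lower. In the mature thymus 5 were called, against 18.9%, again all higher in cDC2, the direction of 14.6% of all genes, while 4.36% were lower. Samples of the subsets did not overlap for 9, 6 and 7 members in splenic, immature thymic and mature thymic cells, against 31.6%, 34.8% and 32.8% of all genes.

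The maturation effect differed between cDC2 and cDC1 for 4 members, against 13.6% of all genes, with 1 more positive (all genes 8.34%) and 3 more negative in cDC2 (all genes 5.25%). The tissue effect differed for 4, against 4.98%, with 1 more positive (all genes 3.27%) and 3 more negative in cDC2 (all genes 1.71%). The comparisons share groups, so their counts are not independent of each other. In lane 8 alone splenic cDC2 had 1 sample and was assumed to vary like the other groups. There fewer members, and fewer of all genes, were called for the difference of the tissue effects.

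**Figure D2:**
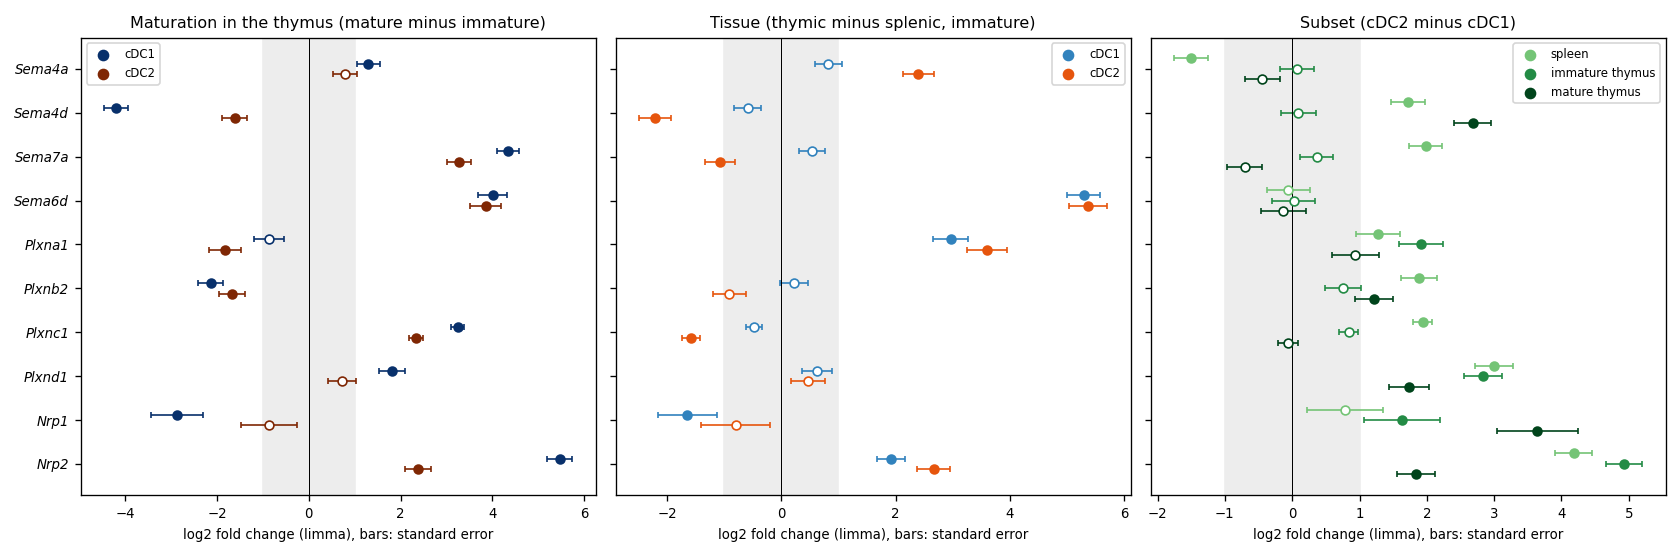
Fitted log2 fold changes (x axis) of the 10 members for maturation in the thymus, for tissue in immature cells and for subset, with bars at the standard error. Filled points were called, open points were not, and the grey band spans absolute changes up to 1. Sema6d lay far to the right for maturation in both subsets, at 4.01 and 3.86 for maturation.

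Sema7a, the GPI-anchored semaphorin that binds beta1 integrins and plexin-C1, was among the members that rose most with maturation. In immature thymic cDC1 its normalized read counts were 1051, 969, 1078 and 821, and in mature thymic cDC1 19745, 16566 and 23572. The mature samples thus stood 20.4-fold higher on the means, with no overlap (log2 fold change 4.34 with SE 0.25 and adjusted p = 6.7e-12). Immature thymic cDC2 had 1075, 1261 and 1463 and mature thymic cDC2 12054, 14361 and 10206, a 9.64-fold rise (log2 fold change 3.27 with SE 0.26 and adjusted p = 3.1e-09). The rise was smaller in cDC2 than in cDC1 (difference -1.07 with SE 0.36 and adjusted p = 0.055), and this call was lost without mature thymic cDC2 replicate 3 (-0.95 with SE 0.38 and adjusted p = 0.11), as it was without mature thymic cDC1 replicate 3, immature thymic cDC2 replicate 3 or immature thymic cDC1 replicate 4.

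In the spleen Sema7a was 546, 589.8, 1167 and 547 in cDC1 and 2413, 2012 and 3873 in cDC2, and every cDC2 sample exceeded every cDC1 sample (log2 fold change 1.98 with SE 0.25 and adjusted p = 3e-06). The difference between subsets was 1.96 on lane 5 and 2.28 on lane 8. Immature thymic cDC2 had less Sema7a than splenic cDC2 (-1.08 with SE 0.26 and adjusted p = 0.0053), but without splenic cDC2 replicate 3 the change was -0.81 with adjusted p = 0.046 and without immature thymic cDC2 replicate 1 -0.97 with adjusted p = 0.03, both short of the threshold of 1. Immature thymic cDC1 differed from splenic cDC1 by 0.53 with SE 0.23 and adjusted p = 0.16, which was not called, and their samples overlapped because splenic cDC1 replicate 3 stood at 1167. The tissue effect differed between the subsets by -1.61 with SE 0.35 and adjusted p = 0.007, but in lane 8 alone by -1.76 with adjusted p = 0.11, which was not called. In order of the means, the levels ran from mature thymic cDC1 over mature thymic cDC2, splenic cDC2, immature thymic cDC2 and immature thymic cDC1 to splenic cDC1, and only the last 3 groups overlapped with their neighbours.

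Plxnc1, the plexin that binds Sema7A, had the highest read counts of the 10 genes in mature cells. Its values were 4645, 4220.1, 3899 and 4312 in immature and 41596, 37134 and 42414 in mature thymic cDC1, a 9.46-fold rise (log2 fold change 3.24 with SE 0.14 and adjusted p = 1.7e-13). In cDC2 it rose from 7557, 8006 and 7298 to 37112, 33443 and 46138, or 5.10-fold (log2 fold change 2.34 with SE 0.15 and adjusted p = 1.8e-10). Mature cDC1 and cDC2 overlapped (-0.06 with SE 0.15 and adjusted p = 0.81). The maturation effect was smaller in cDC2 (difference -0.90 with SE 0.21 and adjusted p = 0.0064), which was under the size threshold, while without mature thymic cDC2 replicate 3 the difference was -1.03 with SE 0.20 and adjusted p = 0.0023 and called.

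Among immature cells Plxnc1 was highest in splenic cDC2, with 18764, 26275 and 23819.9 against 6411, 6388, 5650.2 and 5371 in splenic cDC1 (log2 fold change 1.94 with SE 0.14 and adjusted p = 1.9e-09, with 1.79 on lane 5 and 2.11 on lane 8). Thymic cDC2 had 3.01-fold less than splenic cDC2 (-1.58 with SE 0.15 and adjusted p = 2.6e-07, with -1.55 on lane 5 and -1.64 on lane 8). In cDC1 the tissue change was -0.48 with SE 0.13 and adjusted p = 0.018 and not called. The difference of the tissue effects was -1.10 with SE 0.20 and adjusted p = 0.0018, and it fell just short of the size threshold without splenic cDC2 replicate 2 (-0.99 with adjusted p = 0.0059). The order of the group means was mature thymic cDC1, mature thymic cDC2, splenic cDC2, immature thymic cDC2, splenic cDC1 and immature thymic cDC1, and only the mature groups overlapped.

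Sema6d, a transmembrane ligand of plexin-A1, separated spleen, immature thymus and mature thymus in both subsets. Splenic cDC1 had 14.4, 38.5, 21.2 and 26.6 and splenic cDC2 14.6, 48.7 and 16.3, between 10 and 78 reads per sample. Immature thymic cDC1 had 1152, 899, 882 and 965 and immature thymic cDC2 868, 1066 and 1025. The thymic samples were 38.7-fold higher in cDC1 (log2 fold change 5.29 with SE 0.29 and adjusted p = 1.2e-10) and 37.1-fold higher in cDC2 (5.37 with SE 0.34 and adjusted p = 6.1e-10). Within lanes the tissue difference was 5.55 on lane 5 and 5.21 on lane 8 for cDC1 and 4.96 on lane 5 and 5.92 on lane 8 for cDC2.

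Mature thymic cDC1 had 15781, 14817 and 16284 of Sema6d and mature thymic cDC2 13129.6, 13243 and 16591. The rise over immature cells was 16.0-fold in cDC1 (log2 fold change 4.01 with SE 0.31 and adjusted p = 8.9e-10) and 14.5-fold in cDC2 (3.86 with SE 0.34 and adjusted p = 9.7e-09). From splenic to mature thymic cDC1 the group mean went from 25.2 to 15627. The subsets overlapped in the spleen, the immature thymus and the mature thymus, and the log2 difference between cDC2 and cDC1 was -0.06 ± 0.31, 0.02 ± 0.31 and -0.13 ± 0.34 (SE) there, with none called. The maturation effect differed between subsets by -0.15 with SE 0.46 and adjusted p = 0.88, and the tissue effect by 0.08 with SE 0.44 and adjusted p = 0.99. Neither was called, which does not show that the subsets were alike.

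Plxna1, the receptor of Sema6D in dendritic cells, was also higher in the thymus but fell with maturation in cDC2. Splenic cDC1 had 119, 137, 179 and 121 and immature thymic cDC1 1236, 1161, 1028 and 908, 7.79-fold more (log2 fold change 2.96 with SE 0.30 and adjusted p = 6.5e-07). Splenic cDC2 had 339, 181 and 603 and immature thymic cDC2 4269, 3779.9 and 4087, 10.8-fold more (3.60 with SE 0.35 and adjusted p = 3e-07). Both tissue differences were seen within lanes, at 3.26 on lane 5 and 2.80 on lane 8 for cDC1 and 4.10 on lane 5 and 2.70 on lane 8 for cDC2. Immature thymic cDC2 was the highest group, above immature thymic cDC1 by 1.91 with SE 0.33 and adjusted p = 0.00016.

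Mature thymic cDC2 had 1410.3, 1666 and 624 of Plxna1, 3.28-fold less than immature thymic cDC2 on the means (log2 fold change -1.83 with SE 0.35 and adjusted p = 0.00022). Replicate 3, with few macrophage marker reads, was the lowest, and without it the change was -1.40 with SE 0.33 and adjusted p = 0.0022. Mature thymic cDC1 had 562, 477 and 775, and the change from immature cells was -0.86 with SE 0.33 and adjusted p = 0.03, short of the size threshold, but it reached -1.05 with adjusted p = 0.021 without mature thymic cDC1 replicate 3. The mature subsets differed by 0.94 with SE 0.35 and adjusted p = 0.059, which was not called. That difference was called by edgeR (1.05 with adjusted p = 0.03) and DESeq2 (1.01 with adjusted p = 0.018), and without mature thymic cDC2 replicate 3 (1.37 with SE 0.33 and adjusted p = 0.0059) or mature thymic cDC1 replicate 3 (1.13 with adjusted p = 0.038). In the spleen cDC2 exceeded cDC1 (1.27 with SE 0.33 and adjusted p = 0.0062), but without splenic cDC2 replicate 3, at the highest value, the difference was 0.85 with adjusted p = 0.072 and not called.

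Sema4a, the class 4 semaphorin known as a costimulatory ligand, was higher in thymic than in splenic cDC2 and in mature than in immature thymic cDC1. It was 3501, 3675, 5602 and 3787 in splenic cDC1 and 1588, 830.3 and 2231 in splenic cDC2, and every cDC1 sample exceeded every cDC2 sample (log2 fold change of cDC2 over cDC1 -1.50 with SE 0.25 and adjusted p = 9.9e-05, with -1.64 on lane 5 and -1.05 on lane 8). In the immature thymus the subsets overlapped, at 7642, 7657, 8465 and 5429.6 in cDC1 and 7323, 7124 and 8324 in cDC2 (0.07 with SE 0.25 and adjusted p = 0.91). The tissue change was 2.40 with SE 0.27 and adjusted p = 1.5e-06 in cDC2, with 2.67 on lane 5 and 1.79 on lane 8, and 0.83 with SE 0.23 and adjusted p = 0.02 in cDC1, which was short of the size threshold. These tissue effects differed by 1.58 with SE 0.35 and adjusted p = 0.0094, but in lane 8 alone by 1.17 with adjusted p = 0.29.

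Mature thymic cDC1 had 16339.9, 16206 and 21070.5 of Sema4a, 2.45-fold the immature mean (log2 fold change 1.30 with SE 0.25 and adjusted p = 0.00014). Mature thymic cDC2 had 14769, 13942 and 10808, all above the immature samples, with a change of 0.79 with SE 0.27 and adjusted p = 0.02 that was under the size threshold. The maturation effects differed by -0.51 with SE 0.36 and adjusted p = 0.39, not called. The order of the means was mature thymic cDC1, mature thymic cDC2, immature thymic cDC2, immature thymic cDC1, splenic cDC1 and splenic cDC2, and immature thymic cDC1 overlapped with the group on either side of it.

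Sema4d, which encodes CD100, ran the opposite way and fell most in mature cDC1. Splenic cDC2 was the highest group with 10519.6, 9944 and 15509.5, above splenic cDC1 with 3194, 3494, 4535 and 3224 (log2 fold change 1.72 with SE 0.26 and adjusted p = 3e-05, with 1.61 on lane 5 and 2.02 on lane 8). Immature thymic cDC1 and cDC2 overlapped, at 2740.4, 2247, 2014 and 2574 and 2550.2, 2607 and 2447 (0.09 with SE 0.26 and adjusted p = 0.88). Thymic cDC2 was below splenic cDC2 (log2 fold change -2.21 with SE 0.27 and adjusted p = 6e-06), with -2.00 on lane 5 and -2.62 on lane 8, whereas thymic cDC1 differed from splenic cDC1 by -0.59 with SE 0.24 and adjusted p = 0.13, under the size threshold. The difference of the tissue effects was -1.62 with SE 0.36 and adjusted p = 0.0094, and in lane 8 alone -1.86 with adjusted p = 0.21.

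Mature thymic cDC1 had only 112, 137 and 137 of Sema4d, 18.6-fold less than immature thymic cDC1 (log2 fold change -4.20 with SE 0.26 and adjusted p = 2.1e-11). In mature thymic cDC2 the values were 1079, 1226 and 429, 2.78-fold less than in immature cells (-1.61 with SE 0.27 and adjusted p = 6e-05), and without replicate 3, the lowest, the change was -1.14 with SE 0.20 and adjusted p = 0.0001. The fall was smaller in cDC2 than in cDC1 (difference 2.59 with SE 0.38 and adjusted p = 0.0001), and without that replicate the difference was 3.06 with SE 0.26 and adjusted p = 3e-07. Mature cDC2 exceeded mature cDC1 (2.68 with SE 0.27 and adjusted p = 6.6e-07).

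Plxnb2, a plexin-B receptor of class 4 semaphorins, fell with maturation in both subsets and was highest in splenic cDC2. Immature and mature thymic cDC1 had 2708, 2470.3, 2637 and 2151 and 583, 473 and 645, a 4.39-fold fall (log2 fold change -2.14 with SE 0.27 and adjusted p = 7.4e-07). Immature and mature thymic cDC2 had 4320.1, 4026 and 4209 and 1734, 1631 and 794, a 3.02-fold fall (-1.67 with SE 0.28 and adjusted p = 5.9e-05), which without mature replicate 3 was -1.31 with SE 0.27 and adjusted p = 0.00053. In the mature thymus cDC2 exceeded cDC1 by 1.22 with SE 0.28 and adjusted p = 0.0037.

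Splenic cDC1 had 1503, 2098, 3482 and 1877 of Plxnb2 and splenic cDC2 7938, 5783 and 10544, with no overlap (log2 fold change 1.88 with SE 0.27 and adjusted p = 1.6e-05, with 1.93 on lane 5 and 2.04 on lane 8). In the immature thymus the subset difference was 0.75 with SE 0.27 and adjusted p = 0.049, under the size threshold. The tissue change was 0.22 with SE 0.25 and adjusted p = 0.71 in cDC1 and -0.91 with SE 0.28 and adjusted p = 0.028 in cDC2, and neither was called, though in cDC2 it was called without splenic cDC2 replicate 2 (-1.13 with adjusted p = 0.012) and in lane 8 alone (-1.36 with adjusted p = 0.061). The difference of the tissue effects was -1.13 with SE 0.38 and adjusted p = 0.11, just over the threshold, and was called in 9 of 33 alternatives. Among these were DESeq2 (-1.11 with adjusted p = 0.055), lane as a term (-1.15 with adjusted p = 0.093) and the fits without splenic cDC1 replicate 3 (-1.36 with adjusted p = 0.018) or splenic cDC2 replicate 2 (-1.35 with adjusted p = 0.048).

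Plxnd1, known as a receptor of class 3 and class 4 semaphorins and for its part in thymocyte positioning, was higher in cDC2 than in cDC1 in the spleen, the immature thymus and the mature thymus. Splenic cDC1 had 509, 685, 1109 and 543 and splenic cDC2 5409, 3509 and 8343, 8.09-fold more (log2 fold change 3.00 with SE 0.28 and adjusted p = 7.3e-08, with 2.88 on lane 5 and 3.42 on lane 8). Immature thymic cDC1 had 1258, 1077, 1041 and 860.0 and cDC2 8376, 6670.5 and 7494, 7.10-fold more (2.83 with SE 0.28 and adjusted p = 1.9e-07, with 2.73 on lane 5 and 2.84 on lane 8). Neither subset was called between tissues (0.63 with SE 0.26 and adjusted p = 0.14 in cDC1 and 0.47 with SE 0.30 and adjusted p = 0.32 in cDC2).

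With maturation Plxnd1 rose in cDC1 to 3327, 3031 and 4979, or 3.57-fold (log2 fold change 1.81 with SE 0.28 and adjusted p = 1.4e-05). Mature thymic cDC2 had 14825, 14546 and 8609, and the change there was 0.72 with SE 0.30 and adjusted p = 0.059, under the size threshold. Replicate 3 was the lowest of them, and without it the change was 0.97 with SE 0.32 and adjusted p = 0.02. The difference of the maturation effects was -1.10 with SE 0.42 and adjusted p = 0.09, a call lost in 16 of 33 alternatives, among them edgeR (-1.04 with adjusted p = 0.1) and without mature thymic cDC2 replicate 3 (-0.84 with SE 0.42 and adjusted p = 0.19). Mature cDC2 exceeded mature cDC1 (1.74 with SE 0.30 and adjusted p = 0.00029).

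The neuropilins, which bind class 3 semaphorins and VEGF family ligands, moved in opposite directions with maturation in cDC1. Nrp2 was at its lowest in splenic cDC1, at 10.3, 15.8, 10.2 and 12.0, against 205, 179 and 342 in splenic cDC2 (log2 fold change 4.18 with SE 0.27 and adjusted p = 2.4e-10, with 3.81 on lane 5 and 4.83 on lane 8). Immature thymic cDC1 had 71.0, 38.3, 29.6 and 63.7 and immature thymic cDC2 1583, 1355 and 1516, 29.3-fold more (4.93 with SE 0.27 and adjusted p = 3.2e-11, with 4.46 on lane 5 and 5.07 on lane 8). All thymic samples were above their splenic counterparts, in cDC1 (1.92 with SE 0.25 and adjusted p = 1.3e-05, with 2.39 on lane 5 and 1.83 on lane 8) and in cDC2 (2.67 with SE 0.29 and adjusted p = 1.1e-06, with 3.04 on lane 5 and 2.06 on lane 8).

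Mature thymic cDC1 had 2297, 2140.3 and 2039 of Nrp2, 42.6-fold the immature mean (log2 fold change 5.47 with SE 0.27 and adjusted p = 8.6e-13). Mature thymic cDC2 had 7525, 7536 and 8105, 5.20-fold the immature mean (2.38 with SE 0.29 and adjusted p = 9.5e-07), which was above mature cDC1 (1.84 with SE 0.29 and adjusted p = 9.3e-05). The rise was smaller in cDC2 (difference -3.09 with SE 0.40 and adjusted p = 2.6e-05), and without mature thymic cDC2 replicate 3 the difference was -3.13 with SE 0.44 and adjusted p = 9.6e-05. Nrp2 was the member without overlap between any neighbours in the order of the means, which was mature thymic cDC2, mature thymic cDC1, immature thymic cDC2, splenic cDC2, immature thymic cDC1 and splenic cDC1.

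Within each subset the mean of Nrp1 was highest in the spleen, at 517, 637, 618 and 586 in cDC1 and 1062, 895 and 1102 in cDC2 (0.79 with SE 0.57 and adjusted p = 0.38, not called although the samples did not overlap). Immature thymic cDC1 had 223, 209.9, 172 and 154, below splenic cDC1 (-1.64 with SE 0.52 and adjusted p = 0.044, with -1.36 on lane 5 and -1.76 on lane 8). This call was lost without immature thymic cDC1 replicate 4 (-1.55 with adjusted p = 0.1). With immature thymic cDC1 replicates 3 and 4 averaged it was lost too (-1.57 with adjusted p = 0.101 in limma), as it was in lane 8 alone (-1.76). Immature thymic cDC2 had 581, 646 and 533, which overlapped with splenic cDC1 and lay above immature thymic cDC1 (1.64 with SE 0.57 and adjusted p = 0.043), a call lost without replicate 1 (1.64 with adjusted p = 0.1) or 2 (1.56 with adjusted p = 0.12) of immature thymic cDC2 and in lane 8 alone (1.72 with adjusted p = 0.21). Thymic cDC2 differed from splenic cDC2 by -0.80 with SE 0.60 and adjusted p = 0.4, not called.

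Mature thymic cDC1 had 51.6, 3.47 and 71.2 of Nrp1, and replicate 2, at 3.47, rested on 2 reads. All 3 were below the immature samples (log2 fold change -2.87 with SE 0.57 and adjusted p = 0.00019), and the change ran from -3.62 to -1.61 over the alternatives in which it was tested, called in each. The smallest change was the one without replicate 2. Mature thymic cDC2 had 376, 313 and 276, also below the immature samples, with a change of -0.87 with SE 0.60 and adjusted p = 0.26 that was not called. In the mature thymus cDC2 exceeded cDC1 (3.64 with SE 0.60 and adjusted p = 0.00017), a difference that was smaller without mature thymic cDC1 replicate 2 (2.38 with adjusted p = 4e-07). The maturation effects differed by 2.00 with SE 0.83 and adjusted p = 0.12, which was not called, and this value rested on mature thymic cDC1 replicate 2, without which it was 0.74 with adjusted p = 0.098. Without replicate 1 (2.52 with adjusted p = 0.056) or 3 (2.75 with adjusted p = 0.017) it was called, as it was by DESeq2 (1.23 with adjusted p = 0.048) and with a pseudocount of 8 (1.51 with adjusted p = 0.092), but not by edgeR (1.26 with adjusted p = 0.14).

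**Figure D3:**
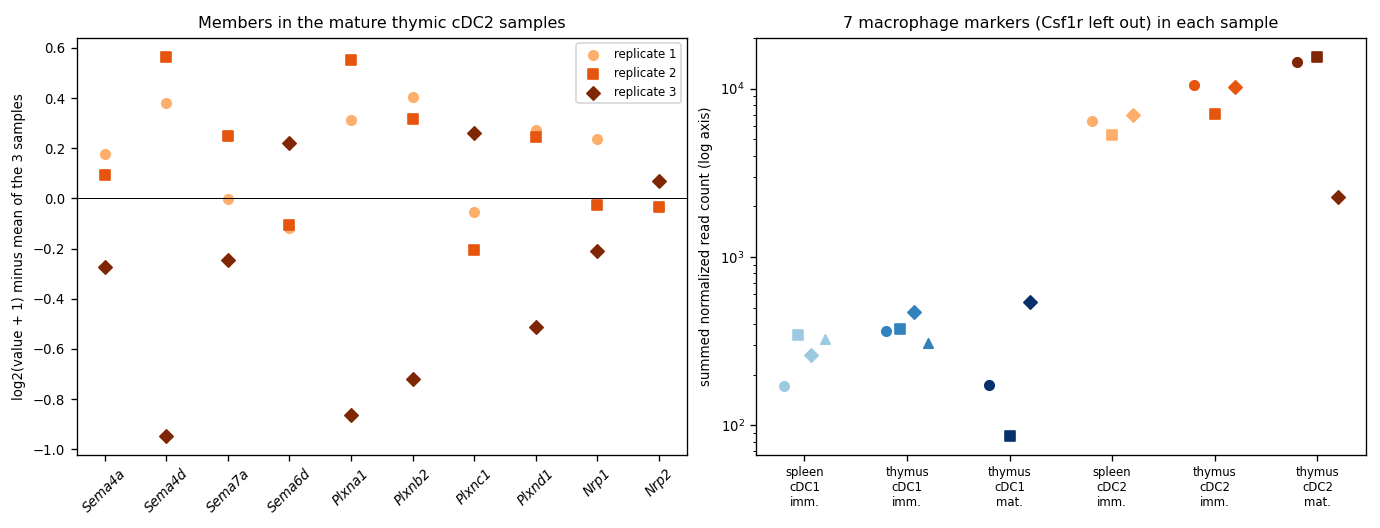
Left, log2(value + 1) of each member in the 3 mature thymic cDC2 samples minus their mean. Right, summed normalized read count (log axis) of 7 macrophage markers, Csf1r left out, in each sample, where replicate 3 of mature thymic cDC2 (diamond) stood at 2261.

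Among the 3 mature thymic cDC2 samples, replicate 3 was the lowest for 7 members, Sema4a, Sema4d, Sema7a, Plxna1, Plxnb2, Plxnd1 and Nrp1, and the highest for the other 3, Sema6d, Plxnc1 and Nrp2. Its sum of the 7 macrophage markers other than Csf1r was 2261, against 14470.0 and 15495 in replicates 1 and 2. It was also the lowest of the 3 for the mature DC marker sum, at 403076 against 529094 and 559008. Its cDC1 and cDC2 marker sums were the lowest too. Its pDC marker sum was the highest, at 3152 against 2109 and 2496. Sema4d, at 1079, 1226 and 429, and Plxna1, at 1410.3, 1666 and 624, showed the widest spread on the log2 scale. The part of macrophage RNA, or of the other marker differences, in the member values was not tested. Without replicate 3, 6 members were called between the mature subsets and 3 for the difference of the maturation effects, of which 2 were called with it. The shares of all genes in that fit are not given here, so these counts are no result about the members. In the spleen, replicate 3 of cDC2 was the highest for 8 members and replicate 2 the lowest for 8, and in mature thymic cDC1 replicate 3 was the highest for 8 and replicate 2 the lowest for 8.

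The other 21 semaphorins and plexins searched included 11 that passed the filter. With maturation 6 of them were called in cDC1 (4 higher, 2 lower) and 5 in cDC2 (4 higher, 1 lower), with a median log2 fold change of -0.15 and 0.40. Of all tested genes, 45.7% were called in cDC1 (21.3% higher, 24.5% lower) and 35.6% in cDC2 (18.6% higher, 17.0% lower), so that these counts lay near the background. The same 4, Plxna4, Plxnb1, Sema3f and Sema4c, were higher in mature cells of both subsets. Sema4c, a class 4 semaphorin, rose from 639 ± 84.4 to 3492 ± 1032 (SD) in cDC1 (log2 fold change 2.42 with SE 0.27 and adjusted p = 1.8e-07) and from 175 ± 17.2 to 1856 ± 279 in cDC2 (3.40 with SE 0.29 and adjusted p = 7.4e-09). Plxna4, a plexin-A receptor, was at 0.211 and 1.96 in immature and 166 and 253 in mature thymic cDC1 and cDC2. Sema4f was higher in cDC1, at 1703 ± 439.6 in splenic cDC1 against 73.5 ± 23.4 in splenic cDC2 (-4.54 with SE 0.24 and adjusted p = 1.6e-11) and 2502 ± 370.3 against 236 ± 37.2 in the immature thymus (-3.40 with SE 0.24 and adjusted p = 1.6e-09). It fell with maturation in cDC1 (-1.70 with SE 0.24 and adjusted p = 4.5e-06).

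Between tissues, 4 of the 11 were called in cDC1 (all genes 8.77%) and 3 in cDC2 (all genes 14.2%). Sema4b was higher in thymic than in splenic cDC1, at 496 ± 92.1 against 44.0 ± 18.4 (3.53 with SE 0.30 and adjusted p = 4e-08), as was Sema4c (1.36 with SE 0.25 and adjusted p = 0.00067). Sema3f, a secreted ligand of Nrp2, was lower in the thymus in cDC1 (-1.81 with SE 0.50 and adjusted p = 0.017) and in cDC2 (-1.42 with SE 0.57 and adjusted p = 0.09), with group means between 18.5 and 126. Of the other class 3 semaphorins, Sema3b passed the filter, and Sema3a, Sema3c, Sema3d, Sema3e and Sema3g did not.

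A list of 13 partner genes held other receptors, coreceptors and proteins listed beside them, and 11 of these genes were tested. Maturation called 8 in cDC1 (4 higher, 4 lower) and 6 in cDC2 (2 higher, 4 lower), with a median log2 fold change of 0.18 and -0.30. The shares of all genes were 45.7% (21.3% higher, 24.5% lower) and 35.6% (18.6% higher, 17.0% lower). Cd72, the receptor of Sema4D on antigen-presenting cells, fell as Sema4d did, from 366 ± 61.1 to 17.9 ± 22.2 (SD) in cDC1 (-5.09 with SE 0.56 and adjusted p = 1.4e-07) and from 3381 ± 381 to 311 ± 152 in cDC2 (-3.58 with SE 0.60 and adjusted p = 5.4e-05). Itgb1, the beta1 integrin chain through which Sema7A acts, rose from 8521 ± 667 to 27562 ± 1393 in cDC1 (1.70 with SE 0.15 and adjusted p = 6.5e-09) and from 8915 ± 356 to 23422 ± 3587 in cDC2 (1.38 with SE 0.16 and adjusted p = 6.1e-07). Its partner Itga1 fell in cDC1 (-1.60 with SE 0.27 and adjusted p = 3.6e-05) and was not called in cDC2 (-0.32 with SE 0.29 and adjusted p = 0.39). Erbb2 and Met are receptor tyrosine kinases that associate with plexin-B proteins. Erbb2 was at 0.422 and 1.32 in immature and 134 and 66.7 in mature thymic cDC1 and cDC2, and Met fell in cDC1 (-1.64 with SE 0.24 and adjusted p = 7.2e-06) and in cDC2 (-2.20 with SE 0.26 and adjusted p = 6.8e-07).

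Havcr2, which encodes Tim-3, was on the list and in its counts but is not named here as a semaphorin receptor. Its values fell from 9616 ± 612 to 243 ± 62.2 in cDC1 (-5.33 with SE 0.21 and adjusted p = 2.8e-14) and from 10823 ± 893 to 592 ± 217 in cDC2 (-4.26 with SE 0.22 and adjusted p = 7.5e-12). Timd2, known in mice as a receptor of Sema4A, did not pass the filter. Between tissues, 3 of these 11 genes were called in cDC1 (all genes 8.77%) and 5 in cDC2 (all genes 14.2%), where all were higher in the thymus. Kdr, the VEGF receptor that forms complexes with plexin-A1 and with neuropilins, was higher in the thymus in cDC1 (1.91 with SE 0.23 and adjusted p = 4.4e-06) and in cDC2 (2.95 with SE 0.26 and adjusted p = 8.5e-08), at 293 ± 54.6 in splenic and 2255 ± 145 in immature thymic cDC2. Flt1 was lower in thymic than in splenic cDC1 (-2.34 with SE 0.30 and adjusted p = 8.8e-06) and higher in thymic than in splenic cDC2 (5.74 with SE 0.34 and adjusted p = 2.5e-10), and these effects differed (8.08 with SE 0.45 and adjusted p = 6.7e-10). Of the partners of plexin-A1, Tyrobp was at 8825 ± 738 in immature thymic cDC2, and Trem2 reached at most a mean of 50.6, in mature thymic cDC2.

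The list of GTPases, regulators and effectors downstream of plexins held 34 genes, of which 32 were tested. Maturation called 17 in cDC1 (9 higher, 8 lower) and 15 in cDC2 (9 higher, 6 lower), and the list's median log2 fold change was 0.29 and 0.07. With 45.7% of all genes called in cDC1 and 35.6% in cDC2, these shares were near the background and are no result about the list. Collapsin response mediator proteins and Mical proteins, which act on microtubules and actin, were split. Dpysl5 was at 0.253 and 1.04 in immature and 963 and 306 in mature thymic cDC1 and cDC2, while Dpysl2 fell in cDC1 (-1.97 with SE 0.28 and adjusted p = 4.4e-06) and cDC2 (-2.31 with SE 0.30 and adjusted p = 2.3e-06). Mical3 rose from 404 ± 87.2 to 8231 ± 1047 in cDC1 (4.36 with SE 0.19 and adjusted p = 1.7e-13) and from 511 ± 4.00 to 9871 ± 15.3 in cDC2 (4.27 with SE 0.20 and adjusted p = 2.3e-12). Mical1 fell from 6024 ± 921 to 685 ± 105 (-3.13 with SE 0.20 and adjusted p = 5.4e-11) and from 6020.3 ± 672 to 1226 ± 305 (-2.32 with SE 0.22 and adjusted p = 2.8e-08), and Mical2 fell too (-4.13 with SE 0.35 and adjusted p = 2.4e-09 and -3.60 with SE 0.37 and adjusted p = 1e-07).

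Among the regulators, the Rac exchange factor Tiam1 fell in cDC1 and cDC2 (-3.09 with SE 0.19 and adjusted p = 2.5e-11 and -1.69 with SE 0.20 and adjusted p = 9.3e-07). Rras2, a Ras family GTPase, rose in both, and more in cDC1 (difference -1.60 with SE 0.24 and adjusted p = 0.00018). Between tissues, limma called 0 of the 32 genes in cDC1 (all genes 8.77%), where 7 had an unadjusted p under 0.05, and edgeR and DESeq2 called 0 as well. In cDC2 it called 4 (all genes 14.2%), with Mras, Tiam1 and Dpysl2 higher and Mical3 lower in the thymus. Of 3 proteases that shed semaphorins, Mmp14 was higher in thymic than in splenic cells, at 13.0 ± 6.90 and 1571 ± 225 in splenic and thymic cDC1 (6.94 with SE 0.34 and adjusted p = 1.7e-11) and 514 ± 151 and 2442 ± 658 in cDC2 (2.25 with SE 0.39 and adjusted p = 0.00028). Adam10 and Adam17 had group means of 1989 to 5137 and 2648 to 4365.

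**Figure D4:**
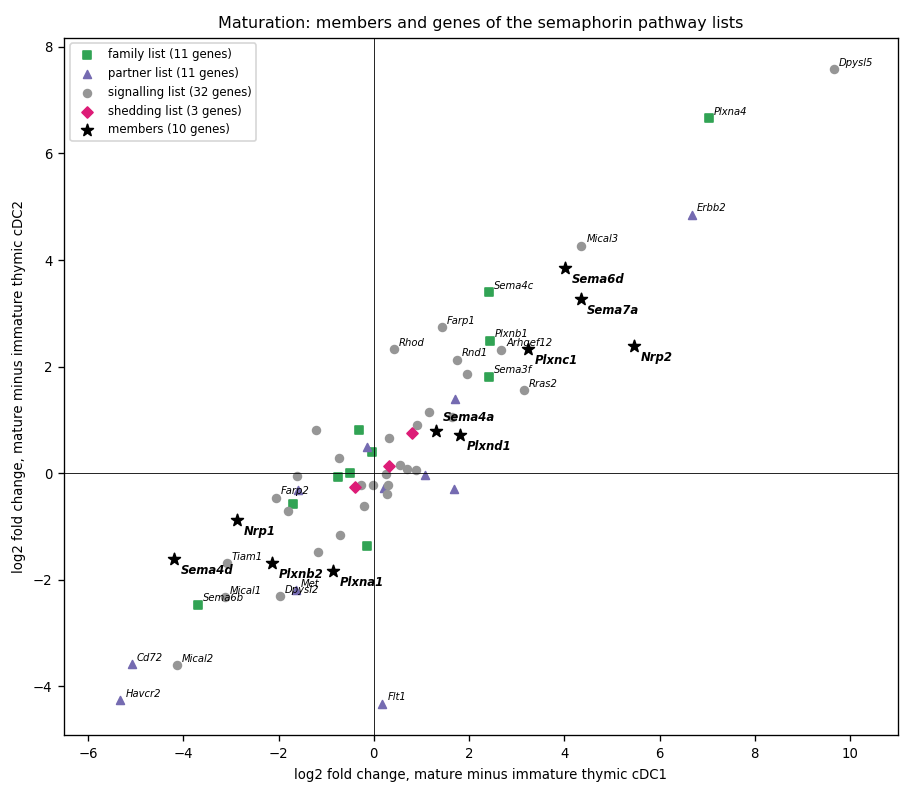
Fitted log2 fold changes from immature to mature cells in thymic cDC1 (x axis) and thymic cDC2 (y axis), with stars for the 10 members and other symbols for the tested genes of the pathway lists. Nrp2 lay at 5.47 and 2.38, Sema4d at -4.20 and -1.61.

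For each member the 2 genes with the most similar profile were sought among 10223 tested genes with a mean value of at least 100, by the root mean square difference of centred log2(value + 1) over the 20 samples. Nearest to Sema7a were Eno3 (0.34) and Relb (0.38), to Plxnc1 Gbp9 (0.28) and Ptpn3 (0.29), to Sema6d Zmynd15 (0.86) and Mmp25 (0.90) and to Plxna1 Socs3 (0.41) and Lgals1 (0.59). Those of Sema4a were Crip1 (0.36) and Cpne2 (0.38), of Sema4d Lcp2 (0.43) and Nod1 (0.55), of Plxnb2 Dgkd (0.32) and Arhgap9 (0.33) and of Plxnd1 Fhl3 (0.46) and Dock1 (0.48). Nrp1 had Matk (0.72) and Stard5 (0.74), and Nrp2 Flrt3 (0.80) and Fabp5 (0.83). The differences were at least 0.72 for Sema6d, Nrp1 and Nrp2, whereas Plxnc1, Plxnb2, Sema7a and Sema4a had neighbours at 0.28 to 0.38. The measure is not scaled for the range of a gene. The highest group mean was 621-fold the lowest for Sema6d and 640-fold for Nrp2, and a Nrp1 sample rested on 2 reads. A large difference therefore does not show an unusual pattern.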

How the data were processed

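RNA was measured in 21 libraries of FACS-sorted cDCs (TruSeq stranded mRNA, HiSeq, paired ends). The authors trimmed reads (Cutadapt), mapped them to the mouse build mm10 by STAR (2.6 in the submitters' processing notes) and counted them per Ensembl gene with HTSeq-count. The deposited signal values are these counts after DESeq2 (1.24.0) size factor normalization. The Ensembl release and the strand setting are not given in the sources used here. In every library the values were whole multiples of a step, so reads were recovered by division, with 100% of values whole within 0.01.

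Genes that reached a value of 10 in 3 or more samples (14970) were fitted on log2(value + 1) with limma 3.58.1 in R 4.3.3 (lmFit, then eBayes with trend), with 1 mean for each of the 6 groups, two-sided tests and Benjamini-Hochberg adjustment over all of them. The count models were edgeR 4.0.16 (quasi-likelihood) and DESeq2 1.42.0 on recovered reads, and the fits were tested on simulated data. Splenic cDC1 replicates 4 and 5 differed by a chi-square of 2.53 per degree of freedom against at least 26.9 for other pairs of the group, and were averaged. Immature thymic cDC1 replicates 3 and 4 shared leading number, index and lane too, but differed by 100.5 and were kept apart. Splenic cDC1 replicate 1 shared the leading number of replicates 4 and 5 but not the lane. It differed from them by 58.7 and 51.5 and was kept apart. Library names begin with a number whose meaning the labels do not give, and separate mice behind each library are not stated, so p-values measure the spread between these samples, which may be technical. GENCODE M21 held 37693 of 37734 gene IDs. Totals of 14266867 to 40119669 reads make a value near 10 a matter of few reads, and counting error adds to its spread.

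By rule the text names the 10 members and, from the lists of relatives, partners, signalling genes and proteases, genes called with a mean of 100 in some group, among the 3 largest changes of their list, or in a count of at most 5. Other names were chosen after their values were seen. Members and lists were chosen with earlier results of these data known. Other settings were pseudocounts of 0.1 and 8, no filter, a value of 10 in every sample, TMM scaling, the groups compared alone, all 21 libraries apart, immature thymic cDC1 replicates 3 and 4 averaged, lane as a term, lane 8 alone, the leading number of the library name as a block, and each sample left out.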

Additional observations from a re-analysis of the deposited data

Results flagged for a closer look

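Replicate 3 of splenic cDC1 lay far above the other 3 samples of its group for Sema4a, at 5602 with a gap to the next sample of 0.864 of the group's range, and for Sema7a, at 1167 with 0.929. Both exceeded Dixon's 95% critical value for 4 samples. A total of 20 sets of 4 values, each of 1 member in 1 group, was examined at both ends, of which chance passes about 1 in 20. Both hits lay in the same sample, so they are not independent of each other.

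Of the 20 interactions tested, those past the threshold were the ones already described. The maturation effect was more negative in cDC2 for Nrp2 (-3.09), Plxnd1 (-1.10) and Sema7a (-1.07) and more positive for Sema4d (2.59). The tissue effect was more negative in cDC2 for Sema4d (-1.62), Sema7a (-1.61) and Plxnc1 (-1.10) and more positive for Sema4a (1.58). Each value is the difference of 2 log2 fold changes in limma.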

How the results depend on the processing

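Of 1800 values from leaving out each of the 20 samples, 1755 kept their direction and side of the threshold, and of 1181 values under the other 14 settings, 1149 did. Members called for the difference of the maturation effects numbered 2 (without immature thymic cDC2 replicate 3 or cDC1 replicate 4) to 4 with 1 sample left out, and those for the tissue effects 1 in lane 8 alone, where fewer samples were fitted. Over all genes, calls for the latter went from 746 to 225 there and to 436 with a value of 10 in every sample, where fewer genes were tested and Nrp1 was not. No called value changed sign. Uncalled differences that did were, for lane 8 alone, Plxnb2 (-0.085, tissue, cDC1), Plxnd1 (-0.24, tissue, cDC2) and Plxna1 (-0.094, tissue effect between subsets). Sema6d did so between splenic subsets (0.16 in edgeR and in DESeq2), between immature thymic subsets (-0.0013 in edgeR, -0.0044 with cDC1 replicates 3 and 4 averaged) and for the tissue effect between subsets (-0.16 in edgeR, -0.15 in DESeq2). With 1 sample left out these ran from -0.59 to 0.25, -0.039 to 0.11 and -0.23 to 0.61, and others were Sema4a between immature thymic subsets (-0.063 to 0.15), Plxnc1 between mature subsets (-0.19 to 0.038) and Plxnd1 for the tissue effect between subsets (-0.48 to 0.15). The cause was not tested.

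The deviations of each sample from its group mean, on the scale of log2(value + 1), were correlated across genes between samples of the 2 subsets. For samples with the same leading number in the library name, whose meaning the labels do not give, these deviations correlated at -0.08 to 0.46 in the spleen. In the immature thymus they correlated at -0.15 to 0.28. Not every sample correlated best with its own number, so that nothing here shows more than a shared number. With that number as a replicate block (correlation 0.16), the difference of the Plxnb2 tissue effects was called (-1.11, adjusted p = 0.066 in limma), which brought the members called there from 4 to 5. The block changed no other member's call.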
